A study of Mus musculus with 8 samples.

Results

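Cholesterol and fatty acid synthesis was followed through 29 genes in lung cells of newborn mice. The genes were taken from a list of named enzymes and regulators of both pathways, and all 29 were among the 32285 genes of the count table. The list covers 6 enzymes from acetyl-CoA through mevalonate to farnesyl diphosphate, 3 that make squalene and lanosterol, 6 that turn lanosterol into cholesterol, 4 genes of sterol regulation and transport, 3 of fatty acid synthesis, 4 desaturases and 3 elongases. No member was used to define a cell group, so the levels below were not fixed by how the cells were chosen. The list itself was chosen with earlier results of these data known. Counts of members set beside the share of all genes are therefore a description and not a test of the pathways.

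The study profiled single cells from lungs of C57BL6/J pups, labelled wild type, at 5 days of age, with 8 libraries. Every mother had received lipopolysaccharide (LPS), a bacterial cell wall component, at day 14 of gestation, so the controls carry that exposure too. From birth 4 libraries' pups breathed 21% oxygen (Air) and 4 libraries' pups breathed 65% oxygen (Hyperoxia) and are labelled BPD (bronchopulmonary dysplasia, a lung disease that follows preterm birth). Lungs had been frozen in medium with DMSO and serum, and after thawing endothelial, epithelial and immune cells were collected by flow sorting, so cell numbers reflect the sort as well as the lung.

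Cholesterol is built from acetyl-CoA through mevalonate, isoprenoids, squalene and lanosterol. Fatty acids are built from the same acetyl-CoA by acetyl-CoA carboxylase and fatty acid synthase, and are then lengthened by elongases and given double bonds by desaturases. The transcription factors encoded by Srebf1 and Srebf2 switch on genes of both pathways when membrane sterol is low, and in the lung the alveolar type 2 (AT2) cell uses fatty acids to make surfactant, a lipid film rich in dipalmitoyl phosphatidylcholine.

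The table held 11806 cells and 77020720 unique molecular identifiers (UMIs, tags that count captured RNA molecules), with 4425 UMIs per cell at the median. Its column names tied 0 of the 8 libraries to cells, so Air and Hyperoxia could not be compared, the table counts as 1 pooled sample, and no test or p-value is given. Cells were placed by UMI counts of other genes in the first gate they passed: 737 AT2 cells, 118 alveolar type 1 (AT1) cells, 601 endothelial cells, 962 alveolar macrophages, 366 interstitial macrophages, 3348 monocytes, 334 neutrophils, 609 T cells, 293 pluripotent-like cells that hold at least 10 UMIs of Dppa5a, and 4438 other cells. Each gate's own markers that had no part in the gate were higher there in 6 or more of the 7 or 8 genes checked. Pluripotency markers were also higher in AT1 cells and T cells (5 of 8 genes each), and neutrophil markers in monocytes (6 of 8). Several gates were passed by 634 cells, among them 200 of the 601 endothelial cells and 109 of the 366 interstitial macrophages. The endothelial and monocyte gates overlapped in 185 cells. The columns fell into 8 runs of alphabetically ordered barcodes, here used only as technical strata with a value where a group had at least 20 cells in the run. Of all cells, 31 had a barcode that occurred in another run.

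Levels are UMIs scaled to the usual fixed total of all UMIs of the group (CPM), and a fold is the level in a group over the level in all cells outside it. Intervals in brackets are exact 95% intervals that cover counting error only. A gene was called higher at 2-fold or more with at least 20 UMIs in the group, and lower at 0.5-fold or less with at least 20 UMIs outside it.

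AT2 cells had the most members called higher. There 14 of the 29 members were called higher and 1 lower, when 13.1% of the 10853 genes with at least 5 CPM in all cells were called higher and 27.8% lower. The median fold of the members in AT2 cells was 1.82, and that of all those genes was 0.793. Pluripotent-like cells came next, with 12 members higher and 2 lower (all genes: 20.8% and 30.9%) and a median fold of 1.76 (all genes: 0.921). Between these groups the called genes differed: both were higher for Hmgcs1, Fdps, Fdft1, Sqle, Lss, Scd2, Fads1 and Fads2, while Elovl6 was higher in pluripotent-like and lower in AT2 cells and Elovl1 the reverse. Dividing cells, with at least 2 UMIs of Mki67 and Top2a together, made up 75.8% of pluripotent-like cells. In the other groups their share was between 0.599% in neutrophils and 25.8% in T cells. The part of division in the pluripotent-like calls was not tested.

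The myeloid groups sat at the other end. Neutrophils had 0 members higher and 18 lower (all genes: 6.57% and 37.2%), monocytes 0 and 15 (4.92% and 21.3%), and interstitial macrophages 0 and 13 (2.3% and 20.9%). Their median folds were 0.358, 0.462 and 0.541, where all genes stood at 0.690, 0.836 and 0.806. Alveolar macrophages differed from the other myeloid groups in having members above the rest of the cells, with 3 higher and 5 lower (4.75% and 20.4%). Counts near or under those of all genes were found in AT1 cells with 4 higher and 2 lower (18.5% and 19.2%), in endothelial cells with 3 and 4 (16.2% and 17%), and in T cells with 0 and 2 (8.81% and 23.6%). In the other cells the counts were 0 and 4 (1.14% and 6.74%). Without the cells that held a Dppa5a UMI, a setting chosen after seeing the data, 0 members were higher and 9 lower in T cells (all genes: 8.62% and 27.2%), and AT1 cells had 2 higher and 4 lower (13.8% and 25.7%). With runs weighted equally the count of higher members in pluripotent-like cells was 7, and the share of all genes was not taken under that setting.

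Some calls did not hold under other settings, for which the share of all genes was not taken unless given above. With the 14 genes that hold 1% or more of a group's UMIs left out, AT2 cells had 16 members higher, with Nsdhl and Insig1 added, and pluripotent-like cells 9, with Hmgcs1, Lss and Dhcr7 lost. Over 15 settings, which were other gates, other cells compared with, doublets or the most abundant genes left out, runs weighted equally and each run left out, with stricter call rules set aside, 12 of the 14 higher calls in AT2 cells held throughout, Sqle and Fdps being the exceptions. The same was so for 7 of 12 in pluripotent-like cells, where Hmgcs1, Pmvk, Lss, Dhcr7 and Scd2 were each lost in at least 1 setting, for 1 of 4 in AT1 cells (Scd2), for 2 of 3 in alveolar macrophages (Hsd17b7 and Dhcr7) and for 3 of 3 in endothelial cells. Of the lower calls, 15 of 18 held throughout in neutrophils, 15 of 15 in monocytes and 10 of 13 in interstitial macrophages, where Hmgcs1, Lss and Acaca were the exceptions. The setting with AT2 cells left out of the cells compared with cannot change a call in AT2 cells, so it is no check of those calls.

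**Figure D1:**
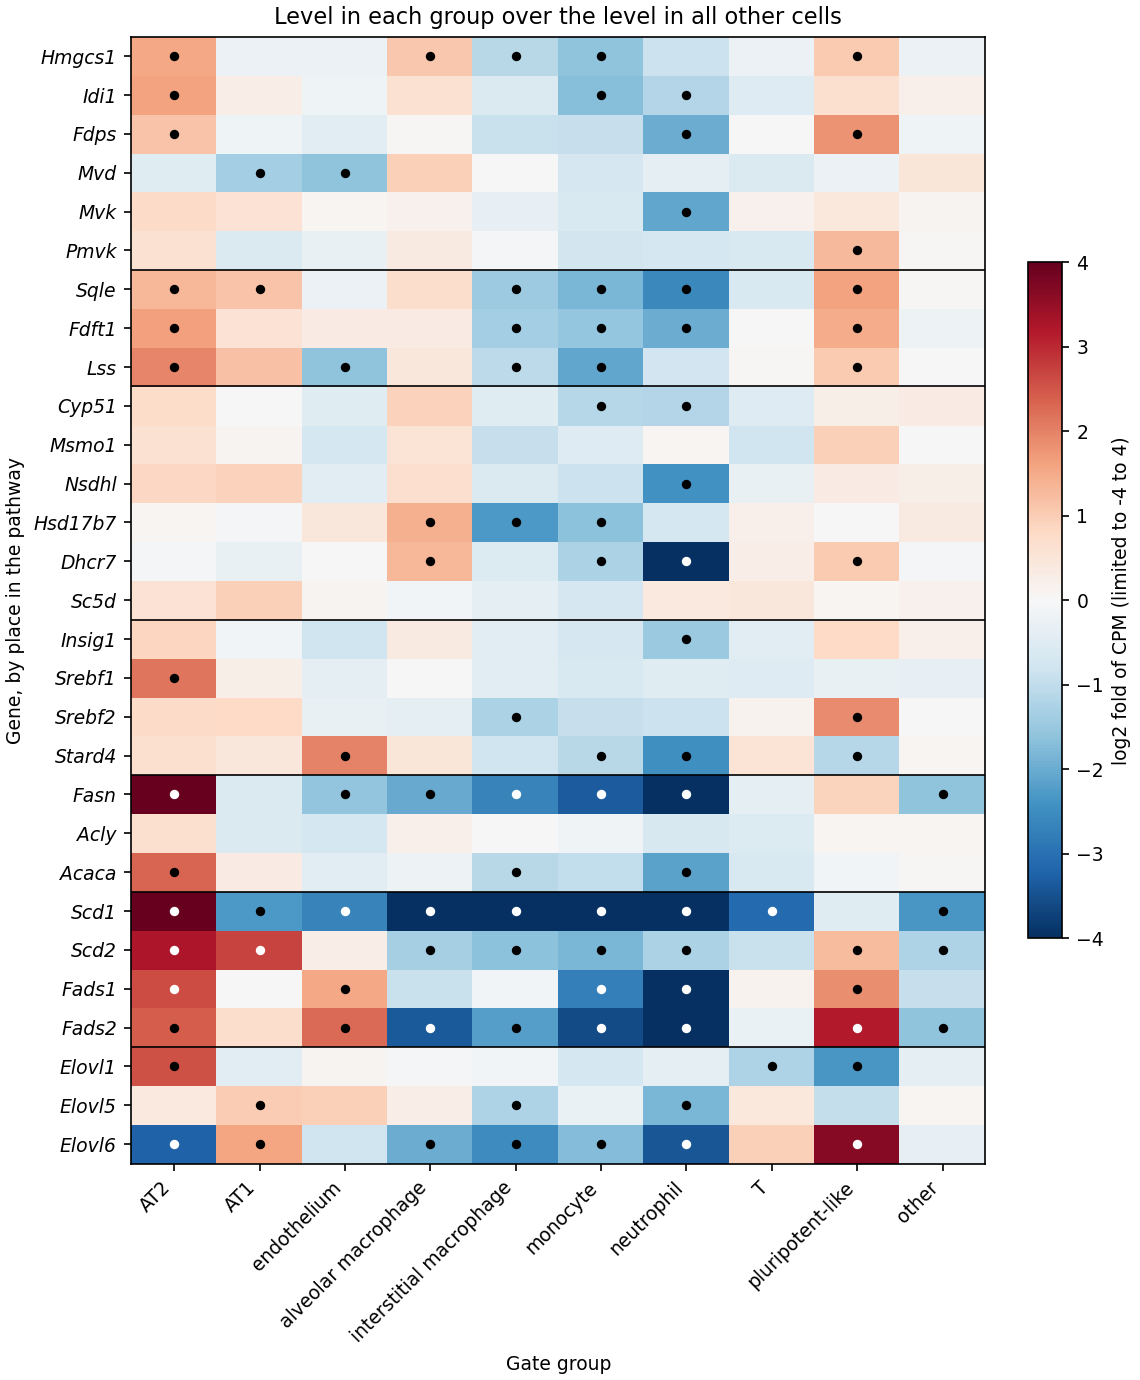
Heat map of the log2 fold of CPM in each of the 10 groups (columns) over all other cells for the 29 genes (rows, ordered by pathway step and separated by lines), with colour limited to -4 and 4 and a dot on each called gene. The AT2 column holds 14 higher calls that run from Hmgcs1 to Elovl1, and the neutrophil column holds 18 lower calls.

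Promoter windows are shown for members with opposite patterns, chosen with their levels known, to set the letters known from sterol-responsive promoters beside the levels. RefSeq windows of build GRCm38.p6, which run from 250 bases before to 50 bases after the annotated start, were matched for 22 of the 29 members. The 3 shown here are Hmgcs1 and Fasn, both highest in AT2 cells, and Elovl6, which had the opposite pattern. Capitals mark the CCAAT box (CCAAT or its reverse complement ATTGG, the site of NF-Y, a partner of the SREBP factors) and the strict sterol regulatory element TCACNCCAC on either strand.
Hmgcs1 (chr13:119690101-119690400, plus strand): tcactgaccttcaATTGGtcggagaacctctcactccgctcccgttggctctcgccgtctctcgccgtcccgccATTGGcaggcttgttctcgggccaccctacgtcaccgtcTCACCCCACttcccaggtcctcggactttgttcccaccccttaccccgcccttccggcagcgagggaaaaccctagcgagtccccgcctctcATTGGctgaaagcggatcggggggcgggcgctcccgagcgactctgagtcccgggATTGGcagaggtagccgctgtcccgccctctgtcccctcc
Fasn (chr11:120824498-120824797, minus strand): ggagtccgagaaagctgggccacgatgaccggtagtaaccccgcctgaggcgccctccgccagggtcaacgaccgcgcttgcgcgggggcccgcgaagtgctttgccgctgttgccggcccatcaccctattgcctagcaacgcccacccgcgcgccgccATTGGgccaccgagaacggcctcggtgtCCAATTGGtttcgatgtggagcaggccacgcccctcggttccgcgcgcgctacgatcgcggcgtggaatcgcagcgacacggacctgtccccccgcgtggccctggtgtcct
Elovl6 (chr3:129532136-129532435, plus strand): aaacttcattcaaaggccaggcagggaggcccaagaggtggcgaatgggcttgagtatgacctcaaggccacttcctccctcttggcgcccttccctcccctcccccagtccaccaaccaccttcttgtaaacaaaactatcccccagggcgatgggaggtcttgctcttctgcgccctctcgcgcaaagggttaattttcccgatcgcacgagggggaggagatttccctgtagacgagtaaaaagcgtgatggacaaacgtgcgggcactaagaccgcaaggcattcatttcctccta
Hmgcs1 held the sterol element with its first base at -137 from the start, and CCAAT boxes at -237, -176, -45 and 10. Fasn held CCAAT boxes at -90, -62 and -59, the last pair overlapping on opposite strands, and Elovl6 held 0. Acaca and Fads2, both called higher in AT2 cells, also held 0 CCAAT boxes. The 1 window of Acaca (chr11:84195188-84195487, plus strand) lies inside the gene (chr11:84129635-84401651). The 1 window of Fasn also lies inside its gene (chr11:120805958-120825166). Bases around the first annotated position of either gene were therefore not looked at. The Fasn positions above are counted from the annotated start used for its window and not from that first position. Across the matched members 19 of 22 (86.4%) held a CCAAT box, compared with 41.7% of 20267 genes with such a window. The GC box GGGCGG, a site of Sp1, was in 17 of 22 (77.3%), compared with 45.8%, and the strict sterol element was in 1 of 22 (4.55%), compared with 1.48%. The genes compared with were taken at any level, while the shares of called genes use those with at least 5 CPM in all cells. Motif shares among genes at that level were not taken, so the part of expression level in these differences was not tested. A match describes letters in the window and not binding.

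Among the genes of fatty acid synthesis, AT2 cells were highest for all 3, and for 2 of them by more than 2-fold. Fasn encodes fatty acid synthase, the enzyme that builds palmitate. The Fasn level was 346 CPM in AT2 cells, 64.8 in pluripotent-like cells, 28.6 in T cells, 24.2 in AT1 cells, 15.0 in other cells, 12.4 in endothelial cells, 9.86 in alveolar macrophages, 5.92 in interstitial macrophages, 4.85 in monocytes and 0.593 in neutrophils. In AT2 cells the runs gave 189 CPM in the lowest run, 349 at the median and 748 in the highest, and every one of the 8 runs lay above the other cells of the same run. The fold over all other cells was 24.2 (22.4 to 26.1). Fasn was called lower in 6 groups, and in neutrophils it rested on 1 UMI. Those calls compare with cells that include AT2 cells. With AT2 cells left out of the cells compared with, a setting chosen after seeing the data, the lower call was lost in endothelial cells, alveolar macrophages and other cells, where the log2 fold was 0.10, and Fasn was called higher in T cells and in pluripotent-like cells.

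Acaca encodes acetyl-CoA carboxylase, which commits acetyl-CoA to fatty acids. Acaca was at 213 CPM in AT2 cells, 68.2 in AT1 cells, 55.5 in other cells, 50.3 in pluripotent-like cells, 47.7 in alveolar macrophages, 40.0 in endothelial cells, 36.5 in T cells, 31.7 in monocytes, 25.6 in interstitial macrophages and 12.5 in neutrophils. AT2 runs held 176 CPM in the lowest run, 218 at the median and 262 in the highest, all above the other cells of their run, for a fold of 4.97 (4.63 to 5.33). Interstitial macrophages and neutrophils were the groups called lower. Acly encodes ATP citrate lyase, which supplies cytosolic acetyl-CoA to both pathways. Acly was at 134 CPM in AT2 cells, 103 in alveolar macrophages, 94.8 in pluripotent-like cells, 92.6 in other cells, 91.2 in interstitial macrophages, 83.5 in monocytes, 62.2 in T cells, 60.5 in AT1 cells, 57.5 in neutrophils and 56.4 in endothelial cells, and no group was called higher or lower: the AT2 fold was 1.55 (1.43 to 1.68).

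Desaturases separated the groups most widely. In AT2 cells all 4 were called higher and in monocytes and neutrophils all 4 were called lower. Of all genes 13.1% were called higher in AT2 cells, and 21.3% lower in monocytes and 37.2% in neutrophils. Scd1 and Scd2 encode stearoyl-CoA desaturases, which make monounsaturated from saturated fatty acids. Both lie in the same stretch of chromosome 19 (Scd1 chr19:44394450-44407709, Scd2 chr19:44293676-44306864, GRCm38). As similar copies they could share reads, and how shared reads were counted is not given in the sources used here. Scd1 stood at 895 CPM in AT2 cells, 50.6 in pluripotent-like cells, 18.5 in other cells, 14.3 in AT1 cells, 11.1 in endothelial cells, 8.44 in T cells, 1.82 in monocytes, 1.48 in interstitial macrophages, 1.04 in alveolar macrophages and 0 in neutrophils. AT2 runs gave 567 CPM in the lowest run, 849 at the median and 1509 in the highest, and all 8 lay above the other cells of the same run. The fold was 82.1 (76.1 to 88.6). In neutrophils 0 UMIs of Scd1 were found among 1685977, which allows up to 1.78 CPM (3 counts). The level was therefore at least 39.9-fold lower than the 71.0 CPM of all other cells. Most of that level comes from AT2 cells, and no bound was taken without them.

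The lower calls of Scd1 in 8 groups compare each group with cells that include AT2 cells. Under the setting without AT2 cells the log2 fold of Scd1 was 0.40 in AT1 cells, 0.0299 in endothelial cells and 1.37 in other cells, while it was -0.39 in T cells, -3.55 in alveolar macrophages, -2.95 in interstitial macrophages and -3.02 in monocytes. Free RNA from AT2 cells was gauged by Sftpa1 and Sftpb, surfactant genes of AT2 cells: their level was 1.10% of the AT2 level in AT1 cells, 0.929% in endothelial cells, 0.915% in pluripotent-like cells and 1.04% in other cells. At those shares the carried level of Scd1 would be 68.6% of the measured one in AT1 cells, 74.7% in endothelial cells, 50.4% in other cells and 16.2% in pluripotent-like cells. It would be 126% in interstitial macrophages, more than was measured, 64.9% in monocytes, 40.2% in alveolar macrophages and 5.84% in T cells.

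Scd2 had a different distribution from Scd1, with both alveolar epithelial groups high. Its level was 396 CPM in AT1 cells, 389 in AT2 cells, 144 in pluripotent-like cells, 76.2 in endothelial cells, 36.0 in T cells, 33.6 in other cells, 27.5 in alveolar macrophages, 27.3 in neutrophils, 22.9 in monocytes and 21.2 in interstitial macrophages. AT2 runs held 268 CPM in the lowest run, 418 at the median and 494 in the highest. The AT1 level was 666 CPM in run 1 and 299 in run 6, the runs with at least 20 AT1 cells, so that run 1 lay above all AT2 runs and run 6 within their range. The folds were 9.41 (8.89 to 9.97) in AT2 cells and 6.55 (5.87 to 7.30) in AT1 cells, where the log2 fold without run 1 was 2.10 in place of 2.71. The carried level came to 1.08% of the AT1 level. In the 96 AT1 cells without a Dppa5a UMI Scd2 was at 515 CPM, and in the 22 with one at 167 CPM.

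Fads1 and Fads2 encode the delta-5 and delta-6 desaturases of polyunsaturated fatty acids. They also lie near each other on chromosome 19 (Fads1 chr19:10182877-10196874, Fads2 chr19:10062765-10101503). Both were called higher in AT2, endothelial and pluripotent-like cells. Fads1 was at 30.0 CPM in AT2 cells, 21.0 in pluripotent-like cells, 18.1 in endothelial cells, 7.21 in T cells, 6.599 in AT1 cells, 6.17 in interstitial macrophages, 4.08 in other cells, 3.71 in alveolar macrophages, 1.31 in monocytes and 0 in neutrophils. Fads2 was at 33.9 CPM in pluripotent-like cells, 23.1 in endothelial cells, 22.3 in AT2 cells, 8.80 in AT1 cells, 4.53 in T cells, 2.23 in other cells, 1.23 in interstitial macrophages, 0.607 in monocytes, 0.580 in alveolar macrophages and 0 in neutrophils. The 5 endothelial runs of Fads2 were 10.2 CPM in run 1, 21.2 in run 4, 56.1 in run 5, 14.3 in run 6 and 32.8 in run 7, each above the other cells of its run, and the highest was over 5 times the lowest. Folds of Fads2 were 8.95 (7.25 to 11.002) in pluripotent-like, 5.32 (4.25 to 6.62) in AT2 and 4.78 (3.54 to 6.35) in endothelial cells. Those of Fads1 were 3.65 (2.87 to 4.61), 6.09 (5.00 to 7.38) and 2.92 (2.09 to 3.98). Neutrophils held 0 UMIs of either gene, so Fads1 was at least 3.78-fold and Fads2 at least 3.10-fold lower there than in all other cells.

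**Figure D2:**
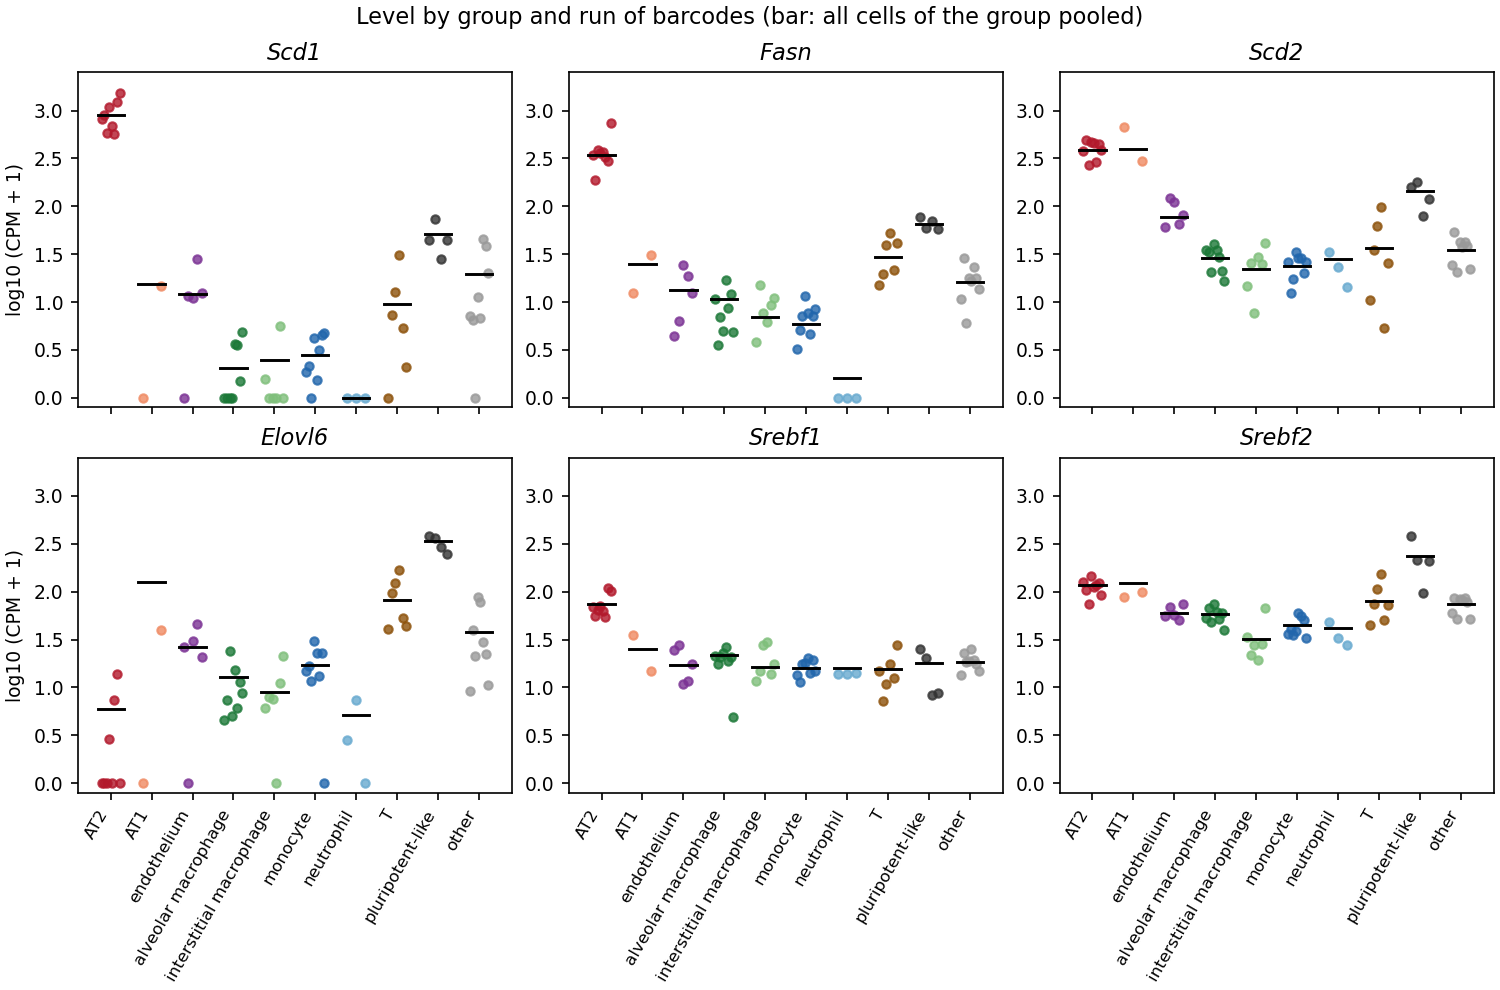
Levels as log10 of CPM + 1 (vertical axis) by group (horizontal axis) for Scd1, Fasn, Scd2, Elovl6, Srebf1 and Srebf2, where each point is a run with at least 20 cells of the group and each bar is the group with all its cells pooled. For Scd1 and Fasn the 8 AT2 runs lie above all runs of every other group, and for Elovl6 the 4 pluripotent-like runs do, while the pooled AT1 bar of Elovl6 lies above both AT1 points because most of its UMIs come from runs with fewer AT1 cells.

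Among the other cells, those outside every gate, Scd1 was higher in B cells. They held 150 cells with at least 2 UMIs of Cd79a and Ms4a1 together, B cell genes, and Pax5, Ebf1 and Ighm were also found there at 413, 3089.9 and 2971 CPM. In these B cells Scd1 reached 293 CPM (252 to 338, 183 UMIs), 26.4 times (21.7 to 32.0) the 11.1 CPM of the remaining other cells. A UMI of Scd1 was found in 94 of 150 B cells (62.7%, exact binomial interval 54.4 to 70.4), with at most 10 in any cell and a median depth of 3066 UMIs. In T cells, a related lymphocyte, the share was 3.12% at a median of 4986 UMIs.

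The B cells held little AT2 RNA: Sftpc, Sftpa1 and Sftpb together had 35 UMIs, or 56.0 CPM. In the 146 B cells with at most 1 such UMI, a check chosen after seeing the data, Scd1 was at 298 CPM (255 to 345). Run 7 held 121 of the B cells at 286 CPM, run 5 held 15 at 250.01 CPM and run 4 held 7 at 321 CPM, while run 1 held 4 at 873 CPM and run 6 held 3 at 135 CPM. All but run 7 are under the 20 cells asked of a run elsewhere, and the surfactant level was 242 CPM in the B cells of run 1 and 202 CPM in those of run 6. Against the rest of the other cells Scd1 was the 1 member called higher in B cells and 14 of 29 were called lower (all genes: 6.92% and 29.7%), among them Hmgcs1 at 9.60 CPM (6 UMIs) and Elovl6 at 8.00 CPM (5 UMIs).

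**Figure D3:**
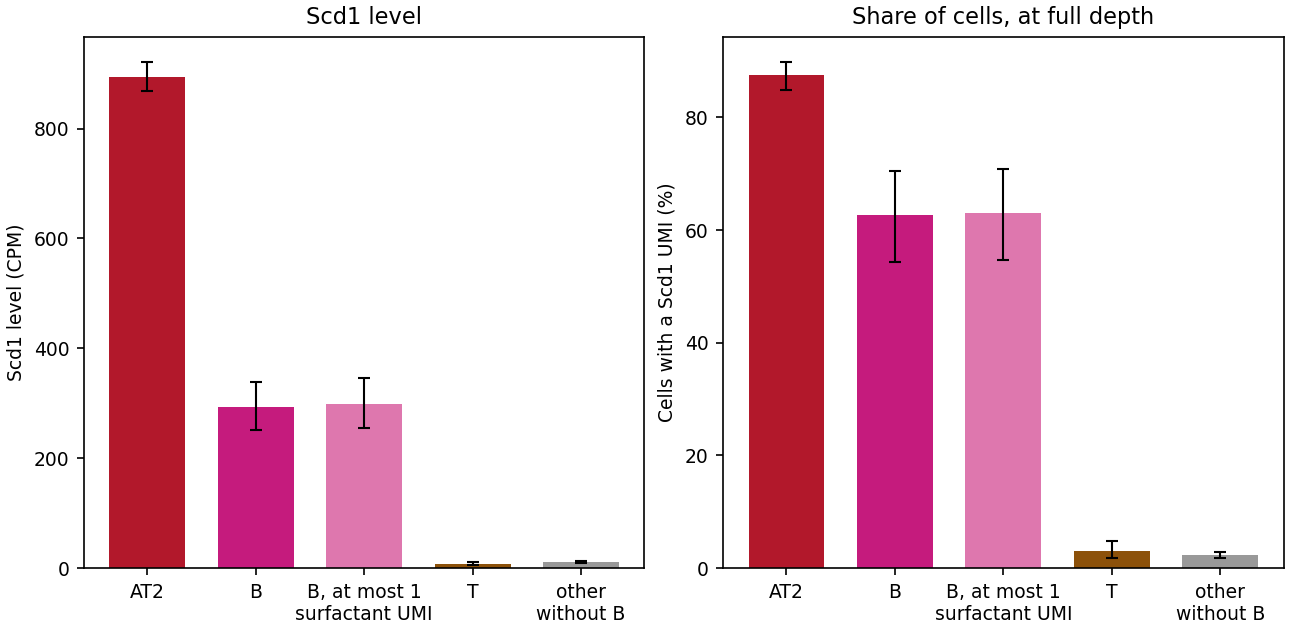
Scd1 as CPM (left, with exact 95% Poisson intervals) and the share of cells with at least 1 Scd1 UMI at full depth (right, with exact 95% binomial intervals) in AT2 cells, B cells, B cells with at most 1 surfactant UMI, T cells and other cells without B cells. B cells stand at 293 CPM and 62.7% of cells, between AT2 cells and the T and other cells, which lie under 4% of cells.

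The 3 elongases had 3 different leading groups. Elovl1, which lengthens very long saturated and monounsaturated fatty acids, was led by AT2 cells. Elovl1 was at 281 CPM in AT2 cells, 69.2 in endothelial cells, 62.3 in alveolar macrophages, 59.2 in interstitial macrophages, 53.6 in other cells, 49.8 in neutrophils, 47.3 in AT1 cells, 43.7 in monocytes, 28.0 in T cells and 13.3 in pluripotent-like cells. AT2 runs gave 195 CPM in the lowest run, 303 at the median and 378 in the highest, all above the other cells of their run, for a fold of 5.81 (5.46 to 6.18). T cells and pluripotent-like cells were called lower, at 0.424 (0.355 to 0.502) and 0.200 (0.150 to 0.261).

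Elovl5 lengthens polyunsaturated fatty acids. Elovl5 was at 142 CPM in AT1 cells, 133 in endothelial cells, 92.9 in T cells, 90.3 in AT2 cells, 82.4 in alveolar macrophages, 73.0 in other cells, 61.1 in monocytes, 37.3 in pluripotent-like cells, 31.1 in interstitial macrophages and 20.2 in neutrophils. The AT1 fold of 2.03 (1.70 to 2.42) was the only higher call, and the endothelial fold of 1.95 (1.74 to 2.18) was just short of it. The AT1 call was lost without run 1 and with the genes that hold 1% or more of a group's UMIs left out. Endothelial cells were called higher with cells of several gates left out, with gate thresholds doubled, with runs weighted equally and without run 7. Interstitial macrophages and neutrophils were called lower.

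Elovl6, which lengthens palmitate to stearate, had a pattern unlike the rest of fatty acid synthesis. Elovl6 was at 337 CPM in pluripotent-like cells, 126 in AT1 cells, 80.3 in T cells, 36.8 in other cells, 25.1 in endothelial cells, 16.3 in monocytes, 11.9 in alveolar macrophages, 7.89 in interstitial macrophages, 4.90 in AT2 cells and 4.15 in neutrophils. The pluripotent-like runs gave 377 CPM in run 4, 367 in run 5, 292 in run 6 and 249 in run 7, all above the runs of every other group, for a fold of 12.6 (11.7 to 13.5). AT2 cells held 25 UMIs of Elovl6 in 5105663, a fold of 0.106 (0.0684 to 0.157), and were below the other cells in 8 of 8 runs. This was the only member called lower in AT2 cells. Without run 7 the AT2 log2 fold was -4.30 in place of -3.24.

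Elovl6 followed Dppa5a, the gene of the pluripotent-like gate, inside other groups too. In AT1 cells 114 of the 115 UMIs of Elovl6 lay in the 22 cells with a Dppa5a UMI, at 366 CPM, and 1 UMI lay in the 96 without, at 1.67 CPM. The pooled AT1 level was called higher, yet it was higher in 0 of 2 runs, at 0 CPM in run 1 and 38.3 in run 6. With the cells holding Dppa5a left out the AT1 log2 fold was -4.31 in place of 1.57, while runs weighted equally gave -0.38. T cells with a Dppa5a UMI stood at 262 CPM and those without at 37.2 CPM, and AT2 cells at 42.4 and 1.08 CPM. Pou5f1, another pluripotency gene, was at 73.7 CPM in AT1 cells, 68.0 in T cells, 3.72 in AT2 cells and 418 in pluripotent-like cells. Whether these cells are mixtures of cell types was not tested.

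Dividing cells, taken as those with at least 2 UMIs of Mki67 and Top2a, also held more Elovl6 in several groups, and cells with Dppa5a were among them. In other cells the level was 174 CPM in cycling and 18.7 in the remaining cells, and in monocytes 46.6 and 13.01 CPM. Among cells without a Dppa5a UMI, a restriction chosen after seeing the data, the levels were 35.4 and 13.8 CPM in other cells, 21.5 and 12.9 CPM in monocytes, 27.4 and 43.8 CPM in T cells, and 9.52 and 17.1 CPM in endothelial cells. In alveolar macrophages they were 9.13 and 10.8 CPM. Under that restriction cycling cells were higher in other cells and monocytes and lower in T cells, endothelial cells and alveolar macrophages. Only 2 UMIs stood behind the endothelial value. In AT2 cells, AT1 cells, interstitial macrophages and neutrophils the cycling value rested on 1 UMI or 0 UMIs.

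The share of cells with a UMI, after each cell was thinned to 1500 UMIs to take out the difference in depth, was taken for the members below. Scd1 was seen in 64.9% of thinned AT2 cells, 8.68% of pluripotent-like and 0.855% of AT1 cells, and Scd2 in 45.2%, 17.0% and 43.6%. Before thinning Scd1 was in 87.5% of AT2 cells and 33.4% of pluripotent-like cells. Fasn was seen in 41.0% of thinned AT2 cells (74.4% before) and 12.5% of pluripotent-like cells (51.5% before). Elovl6 was seen in 38.5% of pluripotent-like (79.2% before) and 0.281% of AT2 cells (1.63% before). Thinning left out 25 AT2, 1 AT1 and 5 pluripotent-like cells with fewer UMIs.

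**Figure D4:**
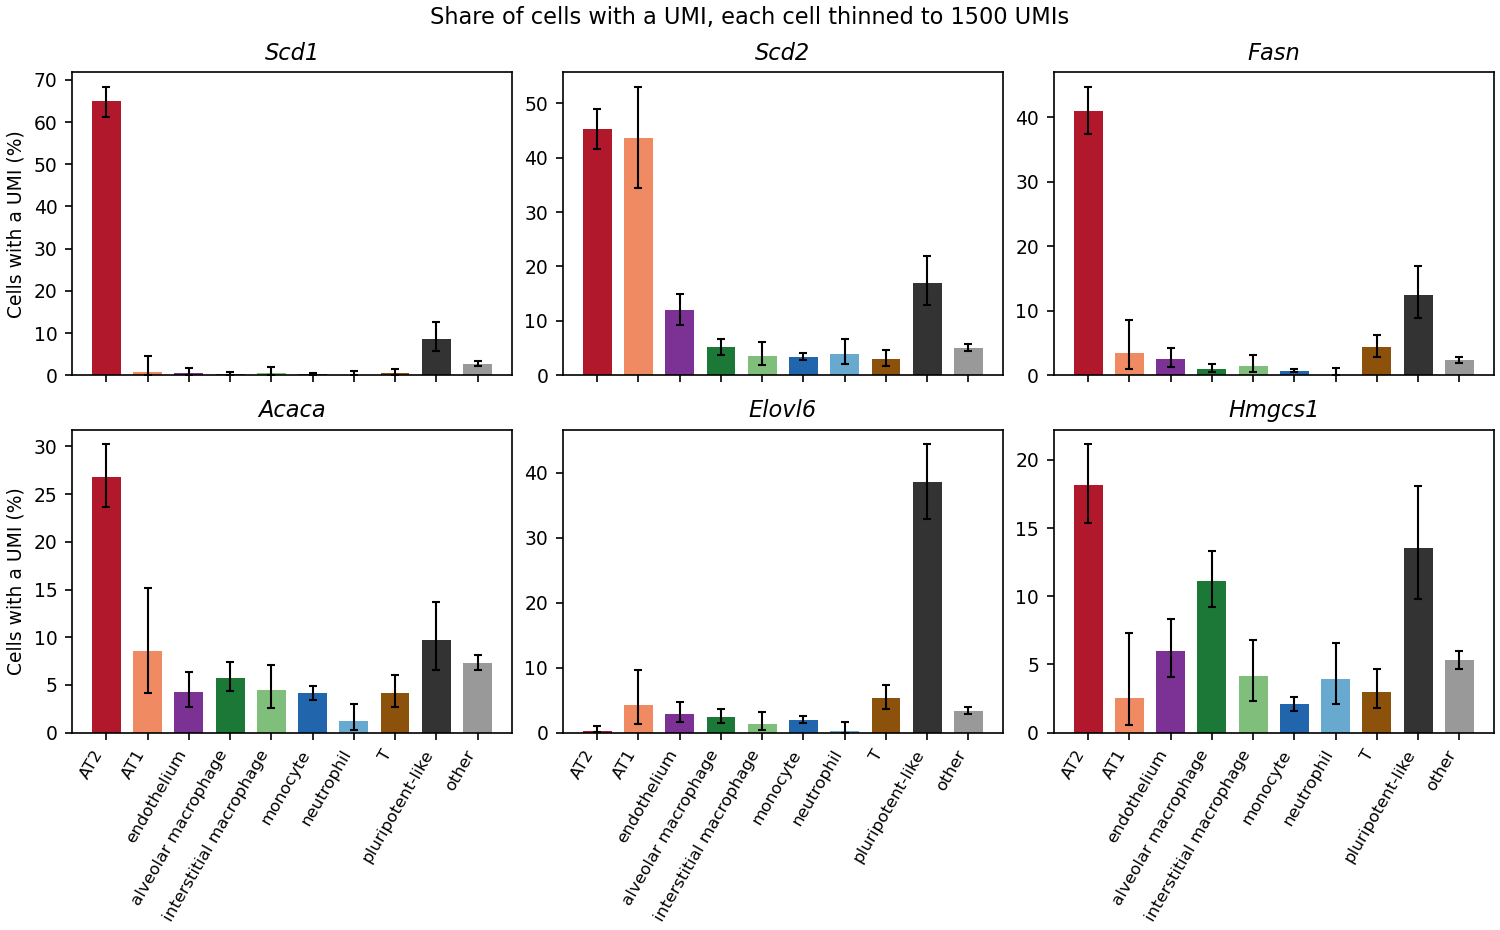
Share of cells with at least 1 UMI (vertical axis, percent, each panel with its own scale) by group after thinning every cell to 1500 UMIs, for Scd1, Scd2, Fasn, Acaca, Elovl6 and Hmgcs1, with exact 95% binomial intervals for counting error. AT2 and AT1 cells are close for Scd2 at 45.2% and 43.6% and far apart for Scd1, and Hmgcs1 shows 3 raised groups.

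The sterol enzymes had 3 high groups in place of 1. Summed over the 15 enzymes from Hmgcs1 to Dhcr7, AT2 cells held 540.4 CPM (520.4 to 561), pluripotent-like cells 537 (515 to 559) and alveolar macrophages 425 (411 to 439). Interstitial macrophages held 182, monocytes 158 and neutrophils 156 CPM, and AT1, endothelial, T and other cells lay between at 311, 231, 240.3 and 293 CPM. Alveolar macrophages were above monocytes in 8 of 8 runs, by 1.44 to 3.21 times, and above interstitial macrophages in 6 of 6, by 1.503 to 3.02 times. AT2 cells were above alveolar macrophages in 7 of 8 runs and above pluripotent-like cells in 3 of 4. Within groups the runs spread widely, from 346 to 685 CPM in AT2 cells and from 214 to 525 in alveolar macrophages.

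**Figure D5:**
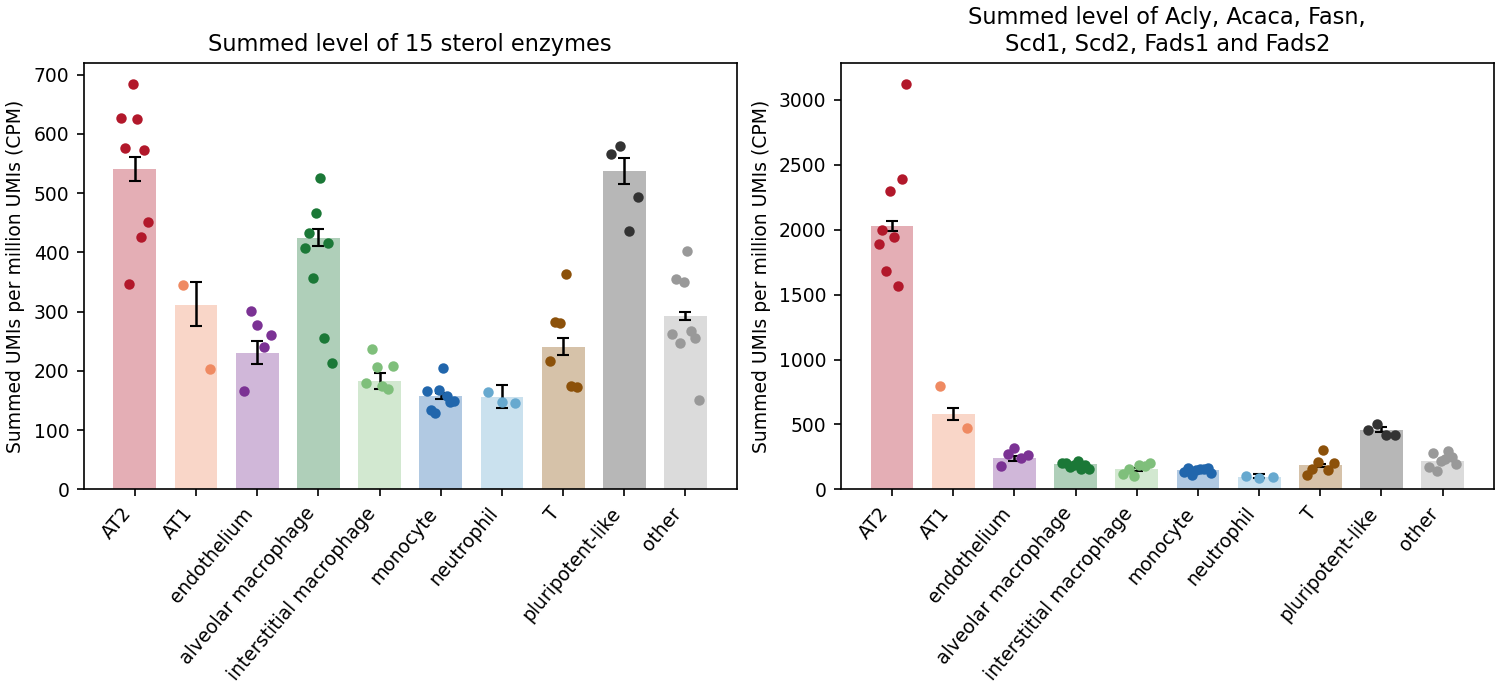
Summed CPM (vertical axes start at 0) of the 15 sterol enzymes (left) and of Acly, Acaca, Fasn, Scd1, Scd2, Fads1 and Fads2 (right) by group, where bars are the pooled group with an exact 95% Poisson interval and points are runs with at least 20 cells. AT2, pluripotent-like and alveolar macrophage bars stand highest on the left, and on the right AT2 cells stand alone at 2029 CPM.

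In the first arm, to farnesyl diphosphate, AT2 cells had 3 of 6 genes called higher (all genes: 13.1%). Hmgcs1 encodes HMG-CoA synthase, which feeds the rate-limiting reductase. Hmgcs1 was at 119 CPM in AT2 cells, 90.5 in pluripotent-like cells, 86.6 in alveolar macrophages, 41.3 in other cells, 39.6 in AT1 cells, 39.3 in T cells, 39.1 in endothelial cells, 25.5 in neutrophils, 22.2 in interstitial macrophages and 18.5 in monocytes. AT2 runs gave 92.5 CPM in the lowest run, 112 at the median and 146 in the highest, and alveolar macrophage runs 41.0 CPM in the lowest run, 74.3 at the median and 122 in the highest, so the macrophage runs overlapped those of AT2 cells. The folds were 2.90 (2.65 to 3.16) in AT2 cells, 2.10 (1.94 to 2.28) in alveolar macrophages and 2.07 (1.85 to 2.30) in pluripotent-like cells. Without run 1 the log2 fold was 0.99 in alveolar macrophages, under the call, and with runs weighted equally 0.85. The pluripotent-like call of Hmgcs1 was lost under both settings too, and with the genes that hold 1% or more of a group's UMIs left out.

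Idi1 encodes isopentenyl diphosphate isomerase and Fdps farnesyl diphosphate synthase, the branch point to cholesterol and to protein prenylation. Idi1 was at 62.9 CPM in AT2 cells, 36.1 in pluripotent-like cells, 34.2 in alveolar macrophages, 28.6 in AT1 cells, 25.9 in other cells, 21.0 in endothelial cells, 16.9 in T cells, 16.0 in interstitial macrophages, 10.7 in neutrophils and 9.01 in monocytes. Its AT2 fold was 3.02 (2.67 to 3.41), with 8 of 8 runs higher. Fdps was at 100.4 CPM in pluripotent-like cells, 65.8 in AT2 cells, 33.6 in alveolar macrophages, 32.3 in T cells, 29.9 in other cells, 28.6 in AT1 cells, 23.9 in endothelial cells, 19.6 in monocytes, 18.003 in interstitial macrophages and 8.30 in neutrophils. Its folds were 3.51 (3.15 to 3.90) in pluripotent-like and 2.19 (1.94 to 2.45) in AT2 cells, and the AT2 call was lost without run 1 and without run 7. The AT2 runs of Fdps ran from 24.4 to 104 CPM and overlapped the pluripotent-like runs of 129 CPM in run 4, 118 in run 5, 55.2 in run 6 and 68.6 in run 7.

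Mvk and Pmvk encode the kinases that phosphorylate mevalonate, and Mvd the decarboxylase after them. Mvk was at 12.1 CPM in AT2 cells, 10.998 in AT1 cells, 9.68 in pluripotent-like cells, 8.24 in T cells, 8.23 in alveolar macrophages, 7.86 in other cells, 7.83 in endothelial cells, 5.92 in interstitial macrophages, 5.41 in monocytes and 1.78 in neutrophils, with neutrophils the only call (lower, on 3 UMIs). Pmvk was at 59.3 CPM in pluripotent-like cells, 38.0 in AT2 cells, 32.1 in alveolar macrophages, 26.3 in other cells, 24.9 in interstitial macrophages, 21.4 in endothelial cells, 17.6 in AT1 cells, 17.5 in T cells, 17.4 in monocytes and 16.0 in neutrophils, higher in pluripotent-like cells by 2.47-fold (2.15 to 2.82), a call lost with runs weighted equally. Mvd had its highest level in alveolar macrophages and its lowest in endothelial cells: 39.3 CPM in alveolar macrophages, 28.0 in other cells, 21.9 in interstitial macrophages, 19.4 in pluripotent-like cells, 17.2 in neutrophils, 16.3 in AT2 cells, 15.7 in monocytes, 15.2 in T cells, 8.80 in AT1 cells and 7.41 in endothelial cells. The macrophage fold of 1.94 (1.72 to 2.19) was under the call, and AT1 and endothelial cells were called lower at 0.391 (0.168 to 0.772, 8 UMIs) and 0.325 (0.192 to 0.515, 18 UMIs). Without run 6 the AT1 log2 fold of Mvd was -0.72 and the lower call was lost.

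In squalene and lanosterol synthesis 3 of 3 genes were higher in both AT2 and pluripotent-like cells, and 3 of 3 lower in interstitial macrophages and in monocytes. Of all genes 13.1% and 20.8% were called higher in the first pair of groups and 20.9% and 21.3% lower in the second. Fdft1 encodes squalene synthase, Sqle squalene epoxidase, a rate-limiting enzyme, and Lss lanosterol synthase. Fdft1 was at 50.3 CPM in AT2 cells, 47.2 in pluripotent-like cells, 27.5 in AT1 cells, 23.1 in endothelial cells, 22.5 in alveolar macrophages, 18.5 in T cells, 16.7 in other cells, 7.65 in monocytes, 7.40 in interstitial macrophages and 4.75 in neutrophils. Sqle was at 28.8 CPM in pluripotent-like cells, 23.9 in AT2 cells, 23.1 in AT1 cells, 16.1 in alveolar macrophages, 10.7 in other cells, 9.06 in endothelial cells, 7.002 in T cells, 3.95 in interstitial macrophages, 3.73 in monocytes and 1.78 in neutrophils. Lss was at 16.1 CPM in AT2 cells, 10.998 in AT1 cells, 9.68 in pluripotent-like cells, 6.49 in alveolar macrophages, 5.15 in T cells, 4.92 in other cells, 2.97 in neutrophils, 2.47 in interstitial macrophages, 1.65 in endothelial cells and 1.49 in monocytes. Levels of Lss were low in every group, and it was the 1 member under 5 CPM in all cells pooled. In AT2 cells the folds were 3.12 (2.72 to 3.58), 2.49 (2.04 to 3.03) and 3.86 (2.99 to 4.95), each with 8 of 8 runs higher, and in pluripotent-like cells 2.82 (2.41 to 3.28), 3.03 (2.48 to 3.69) and 2.07 (1.45 to 2.88), each with 4 of 4. Without run 1 the AT2 call of Sqle was lost. The pluripotent-like call of Lss was lost without run 1, without run 7, with runs weighted equally and with the genes that hold 1% or more of a group's UMIs left out, and its lower call in interstitial macrophages was lost in 6 of 15 settings. Within pluripotent-like cells Sqle was at 33.4 CPM in 222 cycling cells and 5.80 in the other 71 (4 UMIs). The AT1 call of Sqle (21 UMIs) was lost without run 1, where the log2 fold was 0.28 in place of 1.15.

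From lanosterol to cholesterol no gene was called higher in AT2 cells, and alveolar macrophages had 2 of the 6. Of all genes 13.1% and 4.75% were called higher in these groups, so the AT2 count is near that share. Hsd17b7 encodes a ketosteroid reductase of this stretch and Dhcr7 the last reductase before cholesterol. Hsd17b7 was at 12.99 CPM in alveolar macrophages, 7.83 in endothelial cells, 6.76 in other cells, 6.59 in T cells, 6.07 in AT2 cells, 5.81 in pluripotent-like cells, 5.50 in AT1 cells, 3.56 in neutrophils, 2.29 in monocytes and 1.23 in interstitial macrophages. Dhcr7 was at 20.4 CPM in alveolar macrophages, 18.6 in pluripotent-like cells, 11.3 in T cells, 9.47 in endothelial cells, 9.21 in AT2 cells, 9.16 in other cells, 7.70 in AT1 cells, 6.66 in interstitial macrophages, 4.71 in monocytes and 0.593 in neutrophils. Alveolar macrophage runs gave 0 CPM in the lowest run, 11.1 at the median and 23.8 in the highest for Hsd17b7, with 7 of 8 runs higher, and 7.69 CPM in the lowest run, 18.6 at the median and 26.0 in the highest for Dhcr7, with 8 of 8 runs higher. The folds were 2.68 (2.14 to 3.32) and 2.51 (2.11 to 2.98). For Dhcr7 pluripotent-like cells, at 2.07 (1.62 to 2.63), were also called, and AT2 cells were at 0.966 (0.703 to 1.2996). The pluripotent-like call of Dhcr7 was lost without run 1, 3 or 6, with runs weighted equally and with the genes that hold 1% or more of a group's UMIs left out.

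Cyp51 encodes lanosterol demethylase, Msmo1 a methylsterol oxidase, Nsdhl a sterol decarboxylase and Sc5d a sterol desaturase, and none of them was called higher in any group. Cyp51 was at 43.1 CPM in alveolar macrophages, 39.8 in AT2 cells, 29.1 in other cells, 29.03 in pluripotent-like cells, 25.3 in AT1 cells, 18.2 in interstitial macrophages, 18.1 in endothelial cells, 17.9 in T cells, 13.3 in monocytes and 11.3 in neutrophils, with a fold of 1.91 (1.70 to 2.14) in alveolar macrophages. Msmo1 was at 56.1 CPM in pluripotent-like cells, 45.05 in AT2 cells, 42.3 in alveolar macrophages, 33.0 in AT1 cells, 32.0 in neutrophils, 30.6 in other cells, 23.2 in monocytes, 18.9 in endothelial cells, 17.9 in T cells and 16.3 in interstitial macrophages. Neutrophils stood near the middle for Msmo1, unlike their place for most members. Nsdhl was at 17.6 CPM in AT1 cells, 15.9 in AT2 cells, 14.0 in alveolar macrophages, 11.6 in pluripotent-like cells, 10.5 in other cells, 7.83 in T cells, 7.003 in endothelial cells, 6.41 in interstitial macrophages, 5.88 in monocytes and 1.78 in neutrophils. Sc5d was at 26.4 CPM in AT1 cells, 19.98 in AT2 cells, 18.5 in T cells, 17.8 in neutrophils, 15.0 in other cells, 14.8 in endothelial cells, 14.5 in pluripotent-like cells, 12.8 in alveolar macrophages, 10.9 in interstitial macrophages and 9.66 in monocytes, where neutrophils also ranked above monocytes. Msmo1 and Sc5d had no lower call in any group either.

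Dhcr7, Mvd, Hsd17b7 and Cyp51 were also higher in cells outside the alveolar macrophage gate that share its genes. Among other cells, 1405 with at least 3 UMIs of Plet1 and Ear2, genes of alveolar macrophages and a gate chosen after seeing the data, had Dhcr7 at 16.0 CPM, 3.36 times (2.51 to 4.54) the remaining other cells. Mvd, Hsd17b7 and Cyp51 were 2.61, 2.42 and 2.36 times as high. These 4 were the members called higher there, of 29, and 3 were called lower, Scd1, Elovl6 and Fads2 (all genes: 4.11% and 21%), and Scd1 was at 0.860 CPM (8 UMIs). In 21 ciliated cells Sqle was at 75.3 CPM (38.9 to 131, 12 UMIs), Lss at 37.6 (6 UMIs) and Hmgcs1 at 138 (22 UMIs). Natural killer cells, 170 in all, were low for Hmgcs1 at 8.55 CPM (8 UMIs).

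The genes of sterol regulation divided between AT2, pluripotent-like and endothelial cells. Srebf1, whose protein mainly drives fatty acid synthesis, was called higher in AT2 cells alone. Srebf1 was at 73.4 CPM in AT2 cells, 24.2 in AT1 cells, 20.6 in alveolar macrophages, 17.4 in other cells, 16.9 in pluripotent-like cells, 16.1 in endothelial cells, 15.3 in interstitial macrophages, 14.9 in monocytes, 14.8 in neutrophils and 14.6 in T cells. AT2 runs gave 53.3 CPM in the lowest run, 65.5 at the median and 108 in the highest, all above the other cells of their run, for a fold of 4.40 (3.91 to 4.94). Other groups lay between 14.6 and 24.2 CPM.

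Srebf2, whose protein mainly drives cholesterol synthesis, was called higher in pluripotent-like cells. Srebf2 was at 233 CPM in pluripotent-like cells, 123 in AT1 cells, 117 in AT2 cells, 79.1 in T cells, 72.6 in other cells, 58.9 in endothelial cells, 57.3 in alveolar macrophages, 43.8 in monocytes, 40.3 in neutrophils and 31.1 in interstitial macrophages. Its pluripotent-like runs were 383 CPM in run 4, 212 in run 5, 96.8 in run 6 and 209.6 in run 7, so that run 6 lay under the pooled level of AT2 and AT1 cells while the other runs lay above it, and the pooled fold was 3.70 (3.45 to 3.97). In AT2 cells the fold was 1.70 (1.56 to 1.85), under the call.

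Insig1 encodes an anchor that holds the SREBP complex in the endoplasmic reticulum, and it is itself a target of SREBP. Insig1 was at 67.6 CPM in AT2 cells, 66.1 in pluripotent-like cells, 48.5 in alveolar macrophages, 43.1 in other cells, 36.3 in AT1 cells, 28.9 in interstitial macrophages, 28.8 in T cells, 27.3 in monocytes, 22.7 in endothelial cells and 14.2 in neutrophils, called lower in neutrophils only. Stard4 encodes a cytosolic sterol carrier and is also an SREBP target, yet its leading group was endothelium. Stard4 was at 58.1 CPM in endothelial cells, 24.3 in AT2 cells, 22.9 in T cells, 22.0 in AT1 cells, 21.5 in alveolar macrophages, 16.6 in other cells, 9.37 in interstitial macrophages, 8.73 in monocytes, 7.50 in pluripotent-like cells and 2.97 in neutrophils. The 5 endothelial runs gave 61.1 CPM in run 1, 84.7 in run 4, 52.8 in run 5, 53.7 in run 6 and 55.7 in run 7, each above the other cells of its run, for a fold of 3.95 (3.29 to 4.71). Of the 15 sterol enzymes, 0 were called higher in endothelial cells and 2 lower, Mvd and Lss, when 16.2% of all genes were called higher there and 17% lower.

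The lower members of the low groups were also taken run by run. In the 3 neutrophil runs the lower members ranged, in CPM, from 13.3 to 32.0 for Scd2, 16.0 to 26.6 for Elovl5, 6.39 to 13.7 for Insig1, 0 to 16.0 for Acaca, 0 to 12.8 for Cyp51, 0 to 12.8 for Idi1, 0 to 10.98 for Fdps, 0 to 6.39 for Fdft1, 0 to 6.39 for Elovl6, 2.75 to 13.3 for Stard4, 0 to 3.19 for Sqle, 0 to 2.75 for Nsdhl, 0 to 3.19 for Mvk, 0 to 0.915 for Dhcr7, 0 to 0 for Fasn, 0 to 0 for Scd1, 0 to 0 for Fads1 and 0 to 0 for Fads2. All 18 lay under the other cells in each of the 3 runs. Run 7 held 29 neutrophils, with 7 UMIs of Acly, Acaca, Fasn and the desaturases together. For members at low levels in all groups, 0 UMIs would be likely there at an equal level too. Their place under the other cells in that run therefore shows little. In the 8 monocyte runs the lower members ranged from 11.5 to 32.1 for Scd2, 12.4 to 25.1 for Hmgcs1, 0 to 29.7 for Elovl6, 7.54 to 22.0 for Cyp51, 5.65 to 12.1 for Idi1, 3.46 to 14.9 for Stard4, 2.51 to 11.02 for Fdft1, 2.20 to 10.4 for Fasn, 2.51 to 9.37 for Dhcr7, 1.13 to 6.61 for Sqle, 0 to 3.86 for Hsd17b7, 0 to 3.77 for Scd1, 1.13 to 3.77 for Lss, 0.410 to 1.86 for Fads1 and 0 to 2.20 for Fads2, and Elovl6 was under the other cells in 7 of the 8 and the other 14 in all. In the 6 interstitial macrophage runs they ranged from 18.2 to 66.9 for Srebf2, 20.8 to 41.9 for Elovl5, 14.0 to 37.5 for Acaca, 10.5 to 33.7 for Hmgcs1, 6.63 to 40.2 for Scd2, 0 to 20.1 for Elovl6, 5.19 to 10.1 for Fdft1, 2.84 to 14.0 for Fasn, 2.595 to 10.0 for Sqle, 0 to 13.3 for Lss, 0 to 4.58 for Scd1, 0 to 3.49 for Hsd17b7 and 0 to 6.63 for Fads2, where Sqle and Lss were under the other cells in 5 of 6 runs and the other 11 in all. After thinning to 1500 UMIs, Fasn was seen in 0.676% of monocytes, 1.39% of interstitial macrophages and 0% of neutrophils (41.0% of AT2 cells), and Fdft1 in 0.737%, 1.11% and 0.602% (6.601% of AT2 cells).

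The groups with few lower members had these ranges over runs. In alveolar macrophages they were, in CPM, 15.5 to 39.6 for Scd2, 3.61 to 23.1 for Elovl6, 2.57 to 16.1 for Fasn, 0 to 3.89 for Scd1 and 0 to 1.74 for Fads2, all under the other cells in 8 of 8 runs. In endothelial cells they were 3.395 to 23.1 for Fasn, 0 to 26.8 for Scd1, 4.91 to 13.2 for Mvd and 0 to 3.395 for Lss, with Lss under the other cells in 4 of 5 runs. In T cells they were 17.2 to 51.6 for Elovl1 and 0 to 30.2 for Scd1, and in pluripotent-like cells 9.79 to 14.7 for Elovl1 and 4.61 to 13.5 for Stard4. In other cells they were 19.8 to 53.2 for Scd2, 0 to 44.3 for Scd1, 5.09 to 27.5 for Fasn and 0 to 6.38 for Fads2, with Fasn and Fads2 under the remaining cells in 7 of 8 runs, and in AT1 cells 0 to 13.7 for Scd1 and 0 to 11.4 for Mvd. The higher members not yet given by run were, in pluripotent-like cells, Hmgcs1 at 74.4 to 94.4, Pmvk at 28.2 to 74.1, Fdft1 at 33.3 to 59.9, Sqle at 21.5 to 34.6, Lss at 7.32 to 13.7, Dhcr7 at 16.3 to 20.8, Scd2 at 77.2 to 179, Fads1 at 15.7 to 26.9, Fads2 at 23.5 to 40.0 CPM. In AT2 cells they were Idi1 at 48.7 to 81.6, Fdft1 at 30.5 to 77.8, Sqle at 9.23 to 39.6, Lss at 4.87 to 24.7, Fads1 at 24.4 to 36.2, Fads2 at 16.3 to 39.5 CPM, in endothelial cells Fads1 at 13.2 to 26.2 CPM, and in AT1 cells Elovl5 at 204 and 137 and Sqle at 45.4 and 8.22 CPM in runs 1 and 6.

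In monocytes 6 of 29 members were called higher in cycling cells than in the rest and 0 lower (all genes: 9.69% and 3.67%), namely Hmgcs1, Idi1, Fdft1, Mvk, Fasn and Elovl6. In T cells 11 were called higher and 0 lower (12% and 5.2%), namely Sqle, Idi1, Fdft1, Fdps, Mvk, Pmvk, Srebf2, Scd1, Scd2, Elovl6 and Fads1. In monocytes Hmgcs1 was at 37.6 CPM in 145 cycling cells and 16.4 in the remaining 3203, a ratio of 2.29 (1.77 to 2.94), and Idi1 at 20.2 and 7.77 CPM. In T cells Fdps was at 45.5 CPM in 157 cycling cells and 19.95 in 452 others. The T cells with a Dppa5a UMI held Fdps at 70.8 CPM and those without at 23.2 CPM. The part of cells with Dppa5a in the cycling calls was not looked at for members other than Elovl6. Without those cells Elovl6 was at 27.4 CPM in cycling and 43.8 CPM in the remaining T cells. In monocytes it was at 21.5 and 12.9 CPM, so neither group met the call of 2-fold higher. In AT2 cells Elovl1 was lower in 40 cycling cells, at 146 CPM, than in the other 697, at 291 CPM.

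Other lipid genes were counted from lists that share the call rule, and in AT2 cells their counts stand beside 13.1% of all genes higher and 27.8% lower. Of the listed genes of fatty acid synthesis and activation, 13 of which reach 5 CPM in all cells, AT2 cells had 7 of 20 higher and 2 lower, led by Me1, malic enzyme, a source of NADPH, at 27.4-fold (24.9 to 30.2, 242 CPM). Hacd3 and Hacd1, dehydratases of elongation, Acsl4, which activates polyunsaturated fatty acids, and Elovl7 were higher by 6.64, 5.27, 6.27 and 4.52 times. For glycerolipid and phosphatidylcholine synthesis the count was 6 of 13 higher and 5 lower (12 reach 5 CPM), with Lpcat1, the acyltransferase of surfactant phosphatidylcholine, at 42.3-fold (40.3 to 44.5, 1240.4 CPM), Gpam, which starts glycerolipid synthesis, at 24.2-fold (21.7 to 27.0, 177 CPM) and Chpt1, a choline phosphotransferase, at 7.51-fold (6.81 to 8.27, 125 CPM). Chpt1 was also high in AT1 cells, at 8.16-fold (6.91 to 9.59, 179 CPM). All 7 surfactant genes were higher in AT2 cells, from 9.72-fold for Napsa to 238-fold for Sftpa1. These genes also served as markers of that group, so their count repeats the marker check. Ppargc1a, a coactivator of oxidative metabolism in the list of uptake and oxidation (5 of 13 higher and 3 lower, 12 at 5 CPM or more), was at 31.4-fold (25.6 to 38.6, 61.1 CPM).

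Of the listed cholesterol enzymes outside the members, 6 of 7 reach 5 CPM. The calls were 2 of 7 higher and 1 lower in AT2, 1 of 7 higher and 1 lower in alveolar macrophages and 2 of 7 higher and 0 lower in pluripotent-like cells, when all genes gave 13.1% and 27.8%, 4.75% and 20.4%, and 20.8% and 30.9%. In pluripotent-like cells Acat2, which makes acetoacetyl-CoA, was at 5.08-fold (4.24 to 6.06, 39.2 CPM) and Acsl3 of the activation list at 4.43-fold (3.75 to 5.21, 44.5 CPM). Genes of sterol sensing, 8 of 9 at 5 CPM or more, had 0 of 9 higher and 0 lower in AT2 cells (all genes: 13.1% and 27.8%). For sterol efflux and storage, where all 11 reach 5 CPM, 4 of 11 were higher and 1 lower in alveolar macrophages (4.75% and 20.4%), with Abcg1, a sterol exporter, at 5.10-fold (4.95 to 5.24, 941 CPM), and 2 of 11 higher and 0 lower in interstitial macrophages (2.3% and 20.9%), with Apoe at 12.2-fold (12.1 to 12.4, 10838 CPM), a gene that also served as a marker of that group. AT2 cells had 3 of 11 higher and 5 lower (13.1% and 27.8%), with the lysosomal sterol carrier Npc2 at 4.76-fold (4.67 to 4.85, 2812 CPM). Fabp4, a fatty acid carrier, was at 11.8-fold (10.3 to 13.5, 123 CPM) in endothelial cells and 5.04-fold (4.45 to 5.71, 48.4 CPM) in alveolar macrophages.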

How the data were processed

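The files hold counts of UMIs that the authors deposited without normalization, as 1 table of genes by cells. Per the submitters' processing notes, Cell Ranger 1.3.1 and build mm10 were used. How strand, introns and shared reads were handled is not given in the sources used here. In any cell, the lowest number of genes in a cell was 800 and the highest mitochondrial share 9.99%.

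Gates were applied in this order, each on summed UMIs of the genes named: AT2, Sftpc at 3% of UMIs or more; AT1, 3 or more of Rtkn2; endothelium, 2 of Cdh5 and Cldn5; alveolar macrophage, 2 of Ear1 and Marco; interstitial macrophage, 5 of C1qa and C1qb. Then came monocyte, 3 of Ly6c2 and F13a1 or 2 of Ace and Adgre4; neutrophil, S100a8 and S100a9 at 2% with 1 of Csf3r; T, 2 of Cd3e and Trac; and pluripotent-like, 10 of Dppa5a. Counts were summed per group and given as CPM. No doublets were removed; an alternative took out 193 cells by Scrublet score (scanpy 1.11.5). Intervals and floors (3 counts) cover counting error only. Python 3.11.15, numpy 2.4.6, scipy 1.17.1 and pandas 2.3.3 were used, and the fold code was tested on simulated data.

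All 29 members are named, with levels in every group and values or ranges over runs where called. Of the other pathway genes, those at least 4-fold higher at 20 CPM or more are named. The members and lists were chosen with earlier results of these data known. The gates by Plet1 and Ear2, the settings without Dppa5a cells or without AT2 cells, the B cell check, the summed sterol level and its run ratios, and the counts in B, Plet1 and Ear2 and cycling cells were chosen after seeing the data.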

Additional observations from a re-analysis of the deposited data

Results flagged for a closer look

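A run of a group was set apart where its gap to the nearest other run was large against the whole range of the runs. Chance would mark about 1 in 20 such groups if the values were normally distributed with equal error, and 11 of 78 were marked. Runs differ in depth and some groups rest on few UMIs, so that rate need not hold here. The 11 are not to be read as an excess over chance. Runs are technical strata and not samples of a known group.

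Among higher members, Fasn in AT2 cells stood at 748 CPM in run 8, with the next run at 389.6 CPM. Stard4 in endothelial cells stood at 84.7 CPM in run 4, with the next at 61.1 CPM.

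Among lower members, Elovl1 in T cells stood at 51.6 CPM in run 1, Srebf2 in interstitial macrophages at 66.9 CPM in run 7 and Fdft1 there at 10.1 CPM in run 6. Dhcr7 in monocytes stood at 9.37 CPM in run 5. Lss there stood at 3.77 CPM in run 8, with 32 UMIs in the group and few of them in that run. The rest also lay near the level of a few UMIs. Hsd17b7 in interstitial macrophages stood at 3.49 CPM in run 3 (5 UMIs in the group) and Scd1 there at 4.58 CPM in run 6 (6 UMIs). Fads2 stood at 1.74 CPM in alveolar macrophages (5 UMIs) and 2.20 CPM in monocytes (13 UMIs), both in run 5. Each of these 9 runs was the highest of its group.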

How the results depend on the processing

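Runs of barcodes have no known oxygen group, cells are not replicates, and the intervals cover counting error only, so members with few UMIs (Lss, Fads2, Hsd17b7, and Scd1 outside AT2 and B cells) are the least precise. No paired analysis was possible because no cell could be tied to a library. The edgeR test of hyperoxia against air and its alternatives (replicate block, DESeq2, no filter, replicates left out) were not run for the same reason. At 4-fold in place of 2-fold, 8 members were higher in AT2, 2 in pluripotent-like, 1 in AT1 and 1 in endothelial cells and 0 in alveolar macrophages, and 11 were lower in neutrophils, 5 in monocytes, 5 in interstitial macrophages, 3 in alveolar macrophages and 1 each in AT1, endothelial, T, pluripotent-like and other cells. Among genes with at least 20 CPM, 9 were higher in AT2, 6 in pluripotent-like, 1 in alveolar macrophages and 0 in endothelial cells, and 10 were lower in neutrophils, 8 in interstitial macrophages, 7 in monocytes and 1 in pluripotent-like cells. These 2 settings test fewer genes or ask for more. Of the settings in this paragraph, the share of all genes was taken only for the one without cells holding Dppa5a. The other counts show how calls moved and are not set against a general rate. With cells of several gates left out, 2 were higher in AT1, 7 lower in endothelial and 8 lower in T cells. With gate thresholds doubled, 2 were higher and 4 lower in AT1 and 8 lower in T cells. Without cells holding Dppa5a, 2 were higher and 4 lower in AT1 and 9 lower in T cells, and the log2 fold of Elovl6 in AT1 was -4.31. With runs weighted equally it was -0.38, and 7 members were higher in pluripotent-like cells. With AT2 cells out of the cells compared with, the log2 fold of Scd1 was 0.40 in AT1, 0.0299 in endothelial and 1.37 in other cells and that of Fasn 0.10 in other cells, and 1 was lower in AT1, 2 in endothelial cells, 3 in alveolar macrophages, 0 in T and 1 in other cells, with 1 higher in T and 1 in other cells. Leaving out each run gave 2 to 5 higher in AT1 (2 without run 1), 1 to 4 lower in AT1 (4 without run 1, 1 without run 6), 0 to 1 higher in T cells (1 without run 4, 6 or 7) and 1 to 3 lower in pluripotent-like cells (1 without run 5). The cause of these changes was not tested. Removing doublets changed the direction of 0 of 99 values.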
